A study of Mus musculus with 14 samples.

Results

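Tumour necrosis factor (TNF), 2 further ligands of its family, 4 receptors and the intracellular brake on TNF signalling were followed in overloaded skeletal muscle. The 8 genes were Tnf, Ltb, Tnfsf11, Tnfrsf1a, Tnfrsf1b, Tnfrsf12a, Tnfrsf11b and Tnfaip3. They were chosen by gene symbol, as the array rows annotated to one of these symbols alone, and make up 8 of the 19938 genes tested. Each was represented by 1 probe set, and none had further probe sets annotated to it alone or together with other genes. RNA came from the plantaris, a calf muscle, of male C57BL/6J mice 25 months old, on days 0, 1, 3, 5, 7, 10 and 14 after the gastrocnemius and soleus had been removed, which leaves the plantaris to carry their load. On each day 1 Affymetrix Mouse Gene 1.0 ST array held RNA pooled from left and 1 from right plantaris muscles of 6 animals, so each day had n = 2 pools and the 7 days 14 arrays in all. Day 0 served as the baseline. No group was labelled as sham-operated, so surgery and added load cannot be told apart. The series concerns ageing muscle, and young muscle was not analysed here.

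TNF is a cytokine made chiefly by macrophages and other leukocytes, and it acts through the receptors TNFR1 (Tnfrsf1a) and TNFR2 (Tnfrsf1b). The receptors recruit TRAF adapters and kinases that release the transcription factor NF-kB, which in turn switches on inflammatory genes and its own inhibitors, among them the ubiquitin-editing enzyme A20 (Tnfaip3). Fn14 (Tnfrsf12a) is the receptor of the ligand TWEAK and is known in muscle for its induction by injury and denervation. RANKL (Tnfsf11), its receptor RANK and the soluble decoy receptor osteoprotegerin (Tnfrsf11b) control the formation of osteoclasts in bone. Lymphotoxin beta (Ltb) is a membrane ligand of lymphocytes that signals through the lymphotoxin beta receptor.

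Ltb lies at chr17:35194507-35196305 and Tnf at chr17:35199367-35202007, 3061 bases apart in GRCm38.p6. The other genes lie elsewhere: Tnfrsf12a at chr17:23675445-23677449, Tnfrsf1b at chr4:145212368-145246870, Tnfrsf1a at chr6:125349723-125362483, Tnfaip3 at chr10:19000910-19015410, Tnfsf11 at chr14:78277446-78308043 and Tnfrsf11b at chr15:54250619-54278484. RefSeq promoters of that build were matched for 7 of the 8 genes, all but Tnfrsf11b, and the 250 bases before each start were searched on both strands for the NF-kB consensus, a degenerate motif of 10 letters, and for the AP-1 motif TGANTCA. Of 32851 promoter windows of the same length, 7.25% held the NF-kB consensus and 6.75% the AP-1 motif. Among the 7 genes, the NF-kB consensus was found before Tnfaip3 (2 matches) and Ltb (1 match), and the AP-1 motif before Tnfaip3 (1 match). The windows of these 2 genes, and of Tnf as the neighbour of Ltb, are shown 5′ to 3′ on the strand of the gene, with the matches in capitals. That of Tnfaip3 is chr10:19015411-19015660 (minus strand), that of Ltb is chr17:35194257-35194506 (plus strand) and that of Tnf is chr17:35202008-35202257 (minus strand).
Tnfaip3: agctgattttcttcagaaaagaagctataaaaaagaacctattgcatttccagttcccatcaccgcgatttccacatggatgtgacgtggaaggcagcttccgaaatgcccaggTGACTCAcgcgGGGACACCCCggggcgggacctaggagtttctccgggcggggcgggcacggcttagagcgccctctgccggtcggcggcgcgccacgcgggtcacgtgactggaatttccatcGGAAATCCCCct
Ltb: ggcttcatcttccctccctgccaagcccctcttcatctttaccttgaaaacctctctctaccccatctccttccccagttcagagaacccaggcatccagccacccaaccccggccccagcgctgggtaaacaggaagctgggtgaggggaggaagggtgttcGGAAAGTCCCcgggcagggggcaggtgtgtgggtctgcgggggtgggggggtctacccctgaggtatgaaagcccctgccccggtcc
Tnf: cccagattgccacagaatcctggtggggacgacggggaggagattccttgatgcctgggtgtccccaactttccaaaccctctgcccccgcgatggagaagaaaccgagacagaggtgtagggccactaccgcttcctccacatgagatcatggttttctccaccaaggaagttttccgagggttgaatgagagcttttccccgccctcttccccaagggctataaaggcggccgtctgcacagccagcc

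In Tnfaip3, GGAAATCCCC spans bases 12 to 3 before the start, GGGACACCCC bases 125 to 116, and the AP-1 match TGACTCA bases 136 to 130. In Ltb, GGAAAGTCCC spans bases 87 to 78. The letters do not overlap one another. A second annotated start of Tnfaip3 had no match in its window, and neither had Tnf, Tnfsf11, Tnfrsf1a, Tnfrsf1b or Tnfrsf12a. The matches describe the letters of the reference genome, and no binding was measured here.

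The values were log2 signals as deposited, so a difference of 1 is a 2-fold change in signal, and signals of different probe sets cannot be set against each other. Array medians lay between 7.91 and 7.97 when every probe set was counted. For the 19938 tested genes alone they were less even. In the left and right pools they read 8.29 and 8.25 on day 0 and 8.42 and 8.41 on day 7. On day 14 they read 8.38 and 8.39. The alternative with equal array medians, given below, removes these gaps. Pearson's r between left and right pools was 0.994 to 0.997, taken across genes, which are not independent replicates. The 10 muscle fibre markers were bright on all arrays, with day means of 13.54 to 14.23 for Ckm, the muscle creatine kinase, and their summed linear signal ran from 160555 to 163793 on day 0 and from 96163 to 115203 on day 5. No background call accompanied the values, so no gene could be called absent. Whether both pools of a day came from the same 6 animals is not certain from the labels. The p-values therefore measure the spread between pools and arrays, which may be technical.

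Tnf, Ltb, Tnfsf11, Tnfrsf12a and Tnfaip3 had their highest mean on day 1, Tnfrsf1b on day 3, Tnfrsf1a on day 5 and Tnfrsf11b on day 14. On day 1, 7 of the 8 genes were higher than on day 0 and 0 were lower, where 22.3% of all genes tested were higher and 22.6% lower. The median difference of the 8 genes was 1.37 on the log2 scale, beside 0.04 over all genes. On day 3, 5 were higher (24.1% of all genes higher, 26.6% lower), and on day 5 again 5 (26.4% higher, 33.7% lower). On day 7, 5 were higher (26.6% and 36.3%), and on day 10, 4 were (25.9% and 34.3%). On day 14, 5 were higher and 1 lower (22.9% and 30.5%), and 3 in all were called without the right pool of day 0. The medians on these days were 0.75, 0.36, 0.34, 0.23 and 0.31, beside -0.07, -0.12, -0.14, -0.13 and -0.11 over all genes. Over all days together, 8 of 8 passed the moderated F test, as did 79.5% of all genes, and Tnfsf11 had the highest adjusted p of the 8 (0.045). With single arrays left out, 7 or 8 passed. Calls are limma tests with an adjusted p under 0.05 over all genes.

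**Figure D1:**
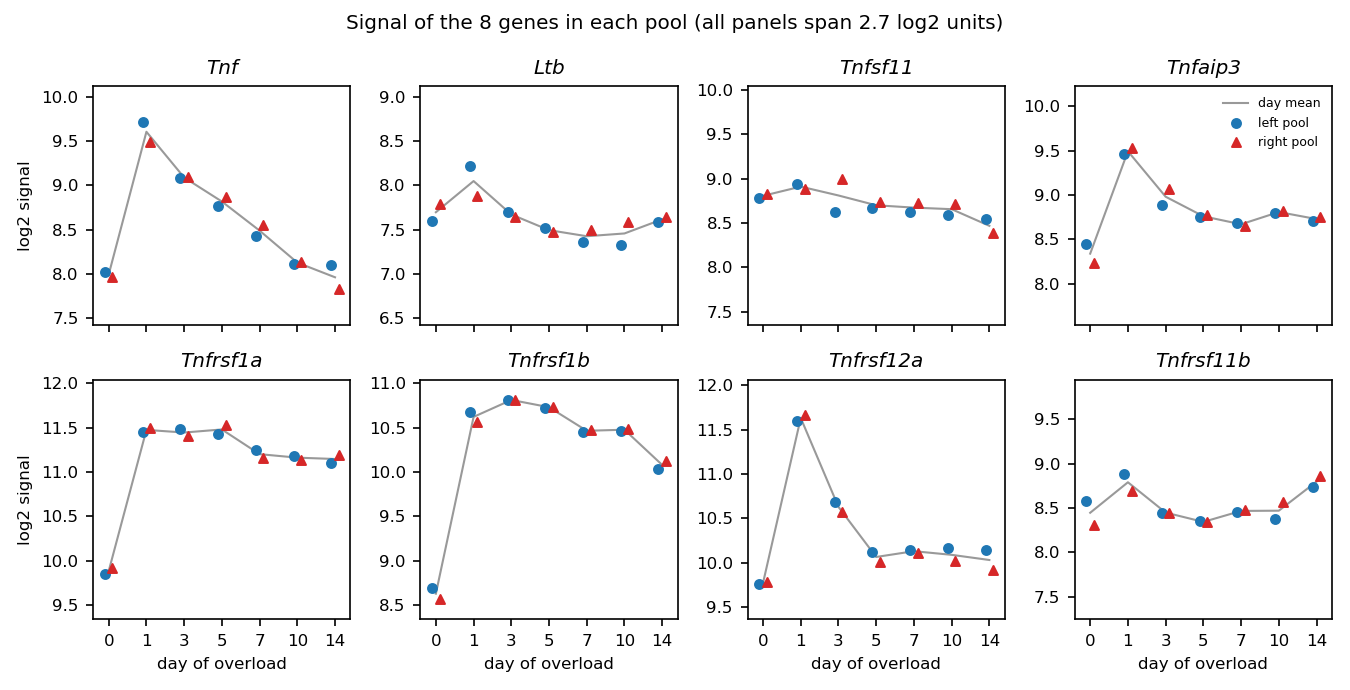
Log2 signal of each gene (y axis, log2 units) in the left pool (circles) and right pool (triangles) on each sampled day of overload (x axis, days spaced evenly); the grey line joins the day means and panels start at different levels and are equally tall in log2 units. Tnfrsf12a and Tnf peak on day 1. The pools of Tnfrsf1a, Tnfrsf1b, Tnfrsf12a and Tnfaip3 lie above their day 0 pools on every later day. On day 14 the means of Tnfrsf1a and Tnfrsf1b are 1.26 and 1.45 above day 0, beside 0.26 for Tnfrsf12a and 0.39 for Tnfaip3.

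Tnf, the ligand that gives the family its name, rose at once and then came down day by day. Its log2 signal on day 0 was 8.02 in the left and 7.97 in the right pool, and on day 1 it was 9.72 and 9.49. On day 3 the pools read 9.08 and 9.10, on day 5 they read 8.77 and 8.87, and on day 7 they read 8.43 and 8.55. On day 10 they read 8.12 and 8.14 and on day 14 they read 8.10 and 7.83. The pools of days 1, 3, 5, 7 and 10 thus formed 5 separate levels, each below the one before, and only the lowest days, 0 and 14, overlapped. By limma the fall from day 1 to day 3 was called. Those from day 3 to 5, day 5 to 7 and day 7 to 10 were not (adjusted p = 0.15, 0.17 and 0.097). The rise on day 1 was 1.61 ± 0.10 (SE, n = 2 pools), which is 3.05-fold (adjusted p = 9.6e-08). The difference from day 0 was 1.09 ± 0.10 on day 3, 0.82 ± 0.10 on day 5 and 0.50 ± 0.10 on day 7 (adjusted p = 1.4e-06, 1.6e-05 and 0.0010). On day 10 it was 0.13 ± 0.10 and on day 14 it was -0.03 ± 0.10 (adjusted p = 0.26 and 0.81). The value on day 14 was 0.11 without the right pool of that day. With the median difference over all genes set to 0, day 10 passed the threshold (0.25, adjusted p = 0.045).

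Macrophage and neutrophil markers moved over the same days. Of 10 macrophage and monocyte markers, 10 were higher than on day 0 on each of the 6 later days, with medians of 2.26, 2.87, 2.78, 2.34, 2.06 and 1.61, and their summed linear signal went from 5955 to 8168 on day 0 to 39332 to 39343 on day 3 and 20621 to 21815 on day 14. Of 9 neutrophil markers, 9 were higher on day 1 (median 1.85) and 0 on day 14, when 6 were lower (median -1.45). Their summed signal was 4302 to 6327 on day 0, 24602 to 26112 on day 1 and 1991 to 2251 on day 14. The part of these cells in the signal of the 8 genes was not tested, and in bulk muscle more cells of a type and more RNA per cell cannot be told apart.

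Ltb, the lymphotoxin beta subunit, changed little. It read 7.60 and 7.80 in the left and right pools of day 0 and 8.21 and 7.88 on day 1. On day 3 it read 7.70 and 7.65, on day 5 it read 7.52 and 7.47 and on day 7 it read 7.36 and 7.49. Day 10 gave 7.33 and 7.59 and day 14 gave 7.59 and 7.64. Day 1 was the highest and lay above both pools of day 0, but its own pools differed by more than the day 1 right pool differed from day 0. Days 5, 7 and 10 were the lowest and overlapped one another. The rise on day 1 was 0.35 ± 0.12, or 1.28-fold (adjusted p = 0.027). It fell short of the threshold without the left pool of day 0 (0.25, adjusted p = 0.18), without the left pool of day 1 (0.19, adjusted p = 0.25) and under 4 other alternatives. The differences on days 3, 5, 7, 10 and 14 were -0.03, -0.20, -0.27, -0.24 and -0.08, each ± 0.12 (adjusted p = 0.87, 0.15, 0.061, 0.096 and 0.58). Day 7 passed the threshold without the left pool of day 0 (-0.37, adjusted p = 0.041) or either pool of day 1 (adjusted p = 0.033), and day 10 without its right pool (-0.37, adjusted p = 0.039). With equal array medians, days 5, 7 and 10 all passed (-0.33, -0.41 and -0.38, adjusted p = 0.030, 0.0094 and 0.017). Lta, the neighbouring lymphotoxin alpha gene 1157 bases beyond Tnf, was not called on any day and lay between -0.28 and 0.28. T cell markers, of which 6 were measured, had 0 higher on day 1 and 5 higher on day 14 (median 0.89), and of 6 B cell markers 1 was higher and 3 were lower on day 14 (median -0.24). The summed signal of the T cell markers was 965 to 1037 on day 0 and 1980 to 2412 on day 14, and that of the B cell markers was 1129 to 1558 and 1185 to 1286. Their part in the level of Ltb was not tested.

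Tnfsf11, which encodes RANKL, was the member with the smallest range of day means, 0.44 on the log2 scale. Its pools read 8.78 and 8.83 on day 0, 8.94 and 8.88 on day 1, and 8.62 and 8.998 on day 3. They read 8.67 and 8.73 on day 5, 8.62 and 8.73 on day 7, and 8.59 and 8.72 on day 10. On day 14 they read 8.54 and 8.39, the lowest mean of all days. Days 1, 3 and 0 overlapped in turn, days 5, 7 and 10 overlapped, and both pools of day 14 lay below those of day 10. The pools of day 3, which lay far apart, also overlapped those of days 5, 7 and 10. The difference of day 14 from day 0 was -0.34 ± 0.11 (adjusted p = 0.022), a 1.26-fold lower signal. It missed the threshold without the right pool of day 0 (-0.31, adjusted p = 0.093), without the right pool of day 14 (-0.26, adjusted p = 0.14) and with the median difference over all genes set to 0 (-0.23, adjusted p = 0.083). On the other days the differences lay between -0.15 and 0.10, with adjusted p from 0.25 to 0.98. With equal array medians, days 7 and 10 passed the threshold (-0.28 and -0.29, adjusted p = 0.039 and 0.035).

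The signals of Tnfrsf1a and Tnfrsf1b, which encode TNFR1 and TNFR2, rose within 1 day and remained high. Protein was not measured. Tnfrsf1a read 9.85 and 9.91 on day 0 and 11.45 and 11.50 on day 1. It read 11.48 and 11.41 on day 3, 11.43 and 11.53 on day 5 and 11.25 and 11.15 on day 7. On day 10 it read 11.19 and 11.14 and on day 14 it read 11.11 and 11.19. Its days fell on 3 levels: days 1, 3 and 5 overlapped at the top, days 7, 10 and 14 overlapped below them, and day 0 stood apart at the bottom. The differences from day 0 were 1.59, 1.56, 1.60, 1.32, 1.28 and 1.26 on days 1, 3, 5, 7, 10 and 14, each ± 0.07 (adjusted p from 4.4e-09 to 5.5e-08), so the signal was 3.03-fold higher on day 5 and 2.402-fold higher on day 14. The difference of day 14 from day 1 was -0.33 ± 0.07 (adjusted p = 0.0025).

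Tnfrsf1b, the receptor best known from leukocytes and endothelium, had the largest difference from day 0 among the 8 genes. Its pools read 8.69 and 8.57 on day 0, 10.68 and 10.57 on day 1 and 10.81 and 10.82 on day 3. They read 10.72 and 10.74 on day 5, 10.46 and 10.48 on day 7 and 10.47 and 10.49 on day 10. Day 14 gave 10.03 and 10.13, below every other day of overload and above day 0. In the order of days 3, 5, 1, 10, 7, 14 and 0, only the neighbours 10 and 7 overlapped. The differences from day 0 were 1.99, 2.19, 2.10, 1.84, 1.85 and 1.45 on days 1, 3, 5, 7, 10 and 14, each ± 0.07, so the signal was 4.55-fold higher on day 3 (adjusted p = 9.4e-10) and 2.74-fold higher on day 14 (adjusted p = 1.7e-08). The step from day 10 to day 14 was -0.40 ± 0.07 (adjusted p = 0.0081). The medians of the macrophage and monocyte markers given above were likewise highest on days 3 and 5, and their part in the level of Tnfrsf1b was not tested.

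**Figure D2:**
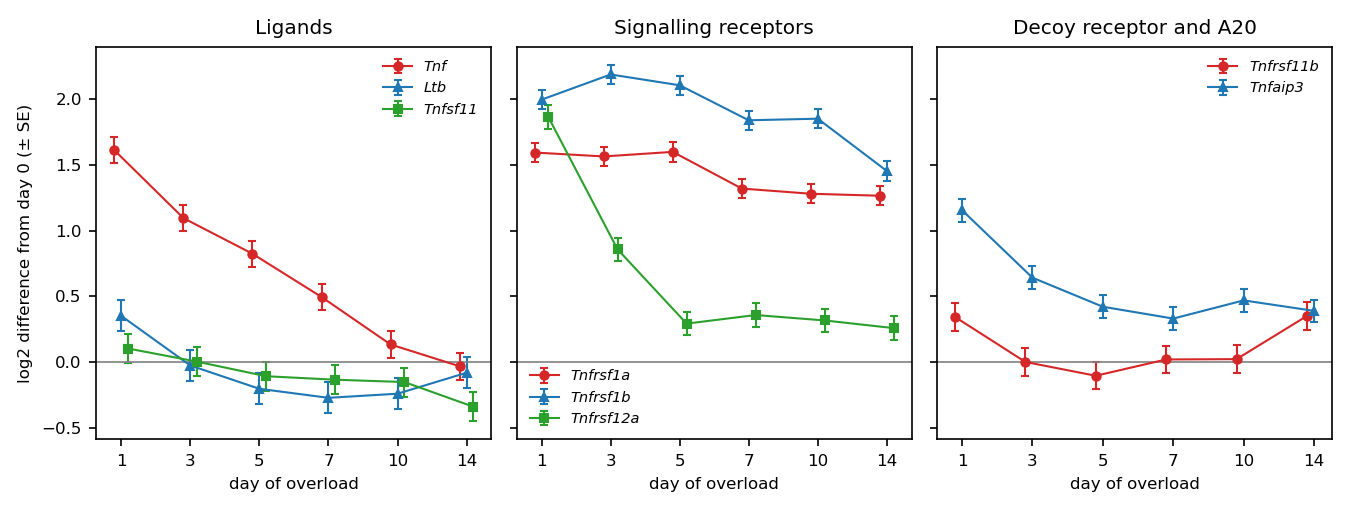
Log2 difference from day 0 (y axis) with its standard error (bars, n = 2 pools a day) on days 1 to 14 (x axis, spaced evenly) for the ligands, the signalling receptors, and the decoy receptor with A20. Tnf falls from 1.61 on day 1 to -0.03 on day 14 and Tnfrsf12a from 1.86 on day 1 to 0.29 on day 5, while Tnfrsf1a and Tnfrsf1b stay at 1.26 and 1.45 or above.

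Tnfrsf12a, the TWEAK receptor Fn14, had a sharp peak on day 1. Its pools read 9.76 and 9.78 on day 0 and 11.60 and 11.66 on day 1. On day 3 they read 10.68 and 10.57, on day 5 they read 10.12 and 10.00 and on day 7 they read 10.14 and 10.11. On day 10 they read 10.16 and 10.01 and on day 14 they read 10.14 and 9.92. Day 1 stood alone at the top, day 3 stood alone below it, days 7, 10, 5 and 14 overlapped in turn, and both pools of day 0 lay below all others. The rise on day 1 was 1.86 ± 0.09, or 3.63-fold (adjusted p = 1.1e-08). On day 3 0.86 ± 0.09 of it was left (adjusted p = 4.4e-06), after a step of -1.003 ± 0.09 from day 1 (adjusted p = 4.2e-06), and the step from day 3 to day 5 was -0.56 ± 0.09 (adjusted p = 0.0026). Days 5, 7, 10 and 14 were still higher than day 0, by 0.29, 0.36, 0.32 and 0.26, each ± 0.09 (adjusted p = 0.014, 0.0042, 0.0090 and 0.029). The calls of days 5, 10 and 14 depended on single pools, whereas that of day 7 held under every alternative run. Day 5 missed the threshold without the left pool of day 0 (0.29, adjusted p = 0.0501) or of day 5 (0.23, adjusted p = 0.11), and day 10 without its left pool (0.24, adjusted p = 0.088). Day 14 missed it without the left or right pool of day 0 (0.25 and 0.27, adjusted p = 0.087 and 0.082) or its own left pool (0.15, adjusted p = 0.23). Equal array medians ended the calls of days 5, 10 and 14 (0.16, 0.18 and 0.14), and quantile normalization those of days 5 and 14 (0.21 and 0.19). Fn14's ligand gene Tnfsf12 shares its probe set with other genes in the annotation and was not analysed here.

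Tnfrsf11b, which encodes osteoprotegerin, had its highest means on days 14 and 1. It read 8.58 and 8.31 on day 0 and 8.88 and 8.69 on day 1. It read 8.45 and 8.45 on day 3, 8.35 and 8.34 on day 5 and 8.45 and 8.48 on day 7. Day 10 gave 8.37 and 8.56 and day 14 gave 8.73 and 8.86. Days 14 and 1 overlapped at the top and lay above all other pools, while the pools of day 0 spanned those of days 3, 5, 7 and 10. The difference from day 0 was 0.34 ± 0.10 on day 1 (adjusted p = 0.016) and 0.35 ± 0.10 on day 14 (adjusted p = 0.013), both 1.27-fold to 1.28-fold. On the days between it lay from -0.10 to 0.02 (adjusted p from 0.40 to 0.99). The call of day 1 ended without the right pool of day 0 (0.21, adjusted p = 0.16) or the left pool of day 1 (0.25, adjusted p = 0.13). That of day 14 ended without the right pool of day 0 (0.21, adjusted p = 0.14) or of day 14 (0.29, adjusted p = 0.097), with quantile normalization (0.24, adjusted p = 0.068) and with equal array medians (0.23, adjusted p = 0.060). Against day 3, which does not involve day 0, day 1 and day 14 were higher by 0.34 and 0.35, each ± 0.10 (adjusted p = 0.019 and 0.020). On day 14, Tnfrsf11b was thus higher and its ligand Tnfsf11 lower than on day 0, and the difference between both changes was not tested.

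Tnfaip3, which encodes A20, rose on day 1 and kept part of the rise. Its pools read 8.45 and 8.23 on day 0, 9.46 and 9.53 on day 1 and 8.89 and 9.07 on day 3. They read 8.75 and 8.77 on day 5, 8.69 and 8.65 on day 7, 8.80 and 8.82 on day 10 and 8.71 and 8.75 on day 14. Day 1 and day 3 stood alone, the later days had means between 8.67 and 8.81, and all lay above both pools of day 0. The difference from day 0 was 1.15 ± 0.09 on day 1, or 2.23-fold (adjusted p = 3.9e-07), and 0.64 ± 0.09 on day 3 (adjusted p = 4.0e-05). On days 5, 7, 10 and 14 it was 0.42, 0.33, 0.47 and 0.39, each ± 0.09 (adjusted p = 0.0011, 0.0054, 5.2e-04 and 0.0025). Day 7 missed the threshold without the right pool of day 0 (0.22, adjusted p = 0.065) and with equal array medians (0.19, adjusted p = 0.054).

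After day 1, the step between successive days with the most calls was from day 1 to day 3. Over this step 5 of the 8 genes fell (Tnf, Ltb, Tnfrsf12a, Tnfrsf11b and Tnfaip3) and 0 rose, where 24.7% of all genes fell and 19.5% rose. Tnf fell by 0.52 ± 0.10 and Tnfaip3 fell by 0.51 ± 0.09 on the log2 scale (adjusted p = 0.0016 and 5.5e-04). Without the left pool of day 3, 3 genes were called over this step, and without either pool of day 0, 6 were. From day 3 to day 5, 1 gene fell, Tnfrsf12a (1.9% of all genes fell and 4.68% rose). From day 5 to day 7 and from day 7 to day 10, limma called 0 of the 8, where 0.627% of all genes fell and 0.401% rose, and 1% fell and 0.933% rose. The pools of Tnf and of Tnfaip3 did not overlap over either of these steps. From day 5 to day 7, those of Tnfrsf1a, Tnfrsf1b and Tnfrsf11b did not overlap either (adjusted p = 0.11, 0.13 and 0.73 by limma). The share of all genes with such pools was not counted, so no change is read from pools that do not overlap. For Tnf the 2 differences were -0.33 ± 0.10 and -0.36 ± 0.10 (adjusted p = 0.17 and 0.097). From day 3 to day 7 the difference of Tnf was -0.60 ± 0.10 (adjusted p = 0.0015). From day 10 to day 14, 1 gene fell, Tnfrsf1b (5.11% of all genes fell and 3.79% rose), and 0 were called without the right pool of day 10 or the left pool of day 14, and 2 without either pool of day 0. Right and left pools differed in none of the 8 genes by limma with the day as a block (0 called of 8, 0 at an unadjusted p under 0.05, and 0% of all genes called, with 2092 at an unadjusted p under 0.05).

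For the 5 genes whose day means spanned at least 1 on the log2 scale, the 3 genes of the most similar course were looked up, measured as the root mean square distance between log2 signals centred on each gene's own mean over the 14 arrays. Tnf was nearest to Gprc5a (distance 0.08), Oasl1 (0.12) and Eif4ebp1 (0.12). Tnfrsf12a was nearest to Map3k8 (0.12), a kinase that acts in TNF and Toll-like receptor signalling, Fem1b (0.13) and Zfand2a (0.15). Tnfaip3 was nearest to Kdm3a (0.08), Igf1r (0.08), the receptor of insulin-like growth factor 1, and Suco (0.09). Tnfrsf1a was nearest to Spred1, Cmip and Arf6 (0.10 each), and Tnfrsf1b to the Toll-like receptor gene Tlr6 (0.10), Zswim6 (0.11) and Fxyd5 (0.11). None of these 15 genes was one of the 8.

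The wider pathway was read from 8 lists with 111 measured genes. On day 1, 59 of them were higher and 18 lower than on day 0, and on day 14, 50 were higher and 22 lower. Their median difference was 0.29 on day 1 and 0.14 on day 14, beside the 0.04 and -0.11 over all genes. The background rates of day 1, taken over every gene tested, were 22.3% for rises and 22.6% for falls. Those of day 14 were 22.9% and 30.5%, and the rates of the other days are given above. The counts of the single lists below are to be read beside these rates, and no list was tested against them.

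Among 13 other ligands of the family, 5 were higher and 1 lower on day 1, with a median of 0.25. Tnfsf9, the ligand of the costimulatory receptor 4-1BB, rose by 1.30 ± 0.11 on day 1 and 1.59 ± 0.11 on day 3 (3.01-fold) and its difference on day 14 was 0.09 ± 0.11 (adjusted p = 0.51). Tnfsf18, the ligand of GITR, rose by 1.36 ± 0.15 on day 1 and was still 0.88 ± 0.15 higher on day 14. Its signal was dim, with means of 5.60, 6.95 and 6.47 on days 0, 1 and 14, below every array median. Tnfsf10, which encodes the death ligand TRAIL, went the other way: it fell by 1.68 ± 0.08 on day 1 (adjusted p = 1.2e-08), and its difference on day 14 was -0.08 ± 0.08 (adjusted p = 0.42). Tnfsf10 was the ligand gene called lower on the day when Tnf was highest.

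Of 24 other receptors, 13 were higher and 3 lower on day 1, and 10 higher and 7 lower on day 14 (medians 0.24 and -0.01). Tnfrsf23, a decoy receptor for TRAIL, stayed between 1.83 ± 0.13 and 2.13 ± 0.13 above day 0 on all later days. Tnfrsf26 rose by 1.97 ± 0.09 on day 1 and was 0.47 ± 0.09 higher on day 14. Both belong to a cluster of closely related genes, and how far their probes tell them apart is not known here. Tnfrsf11a, which encodes RANK, rose by 0.69 ± 0.12 on day 1 and 1.69 ± 0.12 on day 3 (adjusted p = 2.0e-07), and was 0.66 ± 0.12 higher on day 14. Tnfrsf11a was thus called higher on the same days on which the differences of Tnfsf11, the gene of its ligand, lay between -0.34 and 0.10. Ltbr, the receptor for Ltb, rose by 0.55 ± 0.08 to 0.73 ± 0.08 on all 6 days.

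Inside the cell, of the 8 lists, that of NF-kB factors and IkB proteins had the highest share of rises on day 1, with 9 of 10 higher and 0 lower (median 1.16). Nfkbiz and Bcl3, which encode nuclear IkB proteins, rose by 1.78 ± 0.09 each, Nfkbid rose by 1.62 ± 0.09, and Rela, the p65 subunit of NF-kB, rose by 1.12. Bcl3 was highest on day 5, at 2.05 ± 0.09, and was still 1.41 ± 0.09 higher on day 14. Nfkbia, the main cytoplasmic inhibitor IkB alpha, was 1.499 ± 0.10 higher on day 1, while its differences on days 10 and 14 were 0.18 ± 0.10 and 0.08 ± 0.10 (adjusted p = 0.15 and 0.54). On day 14, 6 of the 10 were higher and 2 lower (median 0.33). Of 24 adapters, ubiquitin enzymes and kinases, 13 were higher and 5 lower on day 1, and 11 higher and 3 lower on day 14. Ripk3 and Casp8, which encode enzymes of cell death downstream of TNFR1, were highest on day 5, at 2.36 ± 0.10 and 2.05 ± 0.09, and the adapter gene Traf1 on the same day at 1.27 ± 0.09. Of 12 negative regulators beside A20, 7 were higher and 4 lower on day 1, and 6 higher and 2 lower on day 14. The A20 partner Tnip2 rose by 1.40 ± 0.08 and Zfp36, the protein that destabilises Tnf mRNA, by 1.62 ± 0.10 on day 1, while Tnip3 was highest on day 5 at 1.90 ± 0.18.

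Of 6 genes that control the release of TNF from the cell surface, 4 were higher and 1 lower on day 1. Adam17, the protease that sheds TNF and its receptors, rose by 0.59 ± 0.10 on day 1 and 1.02 ± 0.10 on day 3, and Adam10 by 1.07 ± 0.09 on day 5. Timp3, an inhibitor of ADAM17, fell by 1.08 ± 0.11 on day 1 (adjusted p = 5.0e-06), and its difference on day 14 was 0.01 ± 0.11 (adjusted p = 0.92). Of 12 textbook targets of TNF, 8 were higher and 1 lower on day 1 (median 0.67), and 7 higher and 3 lower on day 5 (median 1.13). The chemokine gene Cxcl10 rose by 2.24 ± 0.18 on day 1, Ptx3 by 2.23 ± 0.15 on day 3 and Tnfaip6, a hyaluronan-binding protein, by 2.31 ± 0.16 on day 5. These genes answer to other signals as well, and the list includes Vcam1, which also stands among the satellite cell markers.

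The last list held genes known from osteoclasts downstream of RANK, and RANK signalling was not measured here. Of 10 such genes, 0 were higher and 3 lower on day 1, while 7 were higher and 2 lower on day 7 (medians 0.00 and 0.66). The proton pump subunit gene Atp6v0d2 was highest on day 7 at 3.06 ± 0.34, the protease gene Ctsk on day 10 at 2.91 ± 0.20 and the phosphatase gene Acp5 on day 7 at 1.83 ± 0.21. All 3 are also made by other cells, Ctsk by fibroblasts and the others by macrophages. Of 8 fibroblast markers, 6 were higher on days 7 and 10 (medians 0.94 and 1.03), and the part of these cells was not tested. Calcr, the calcitonin receptor gene, is in this list and among the satellite cell markers.

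**Figure D3:**
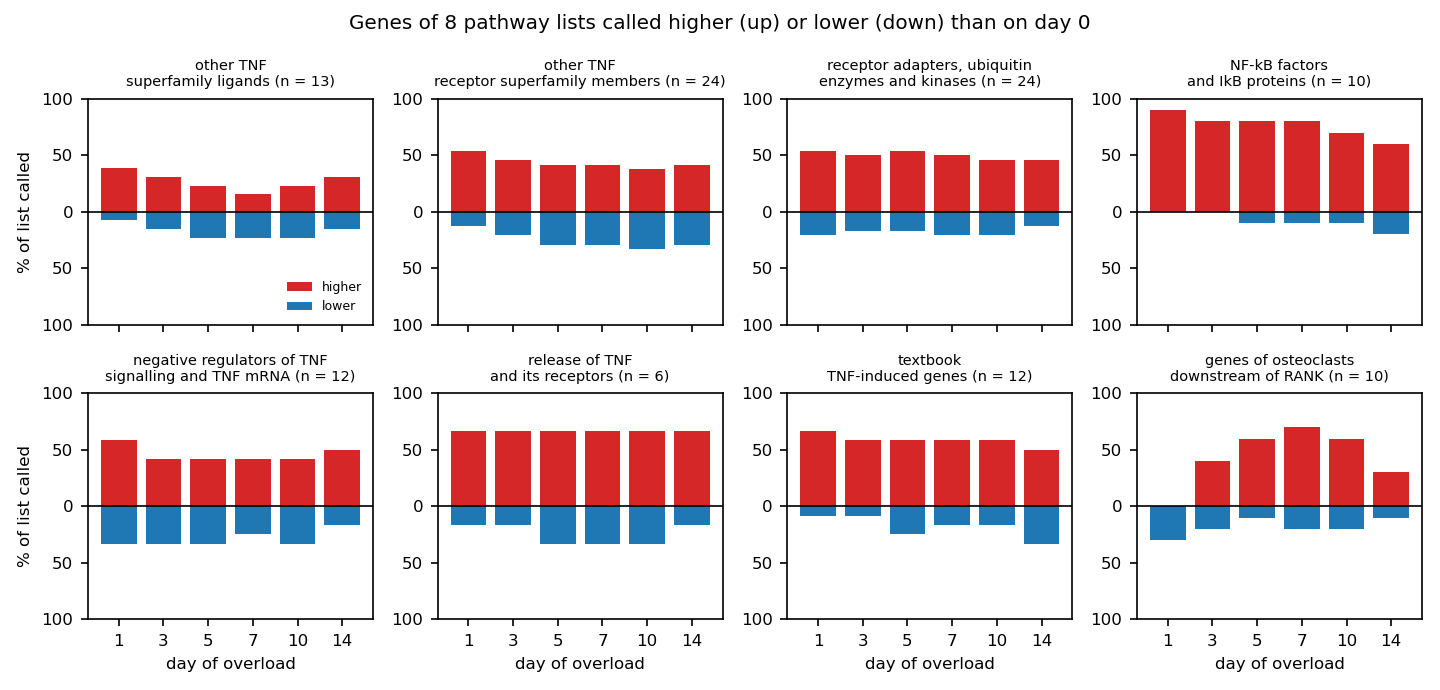
Share of each of 8 pathway lists (y axis, percent of the measured genes n) called higher (red, upward) or lower (blue, downward) than on day 0, on days 1 to 14 (x axis, spaced evenly). The NF-kB and IkB list has 9 of 10 genes higher on day 1, and the osteoclast list has 0 on day 1 and 7 on day 7.

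**Figure D4:**
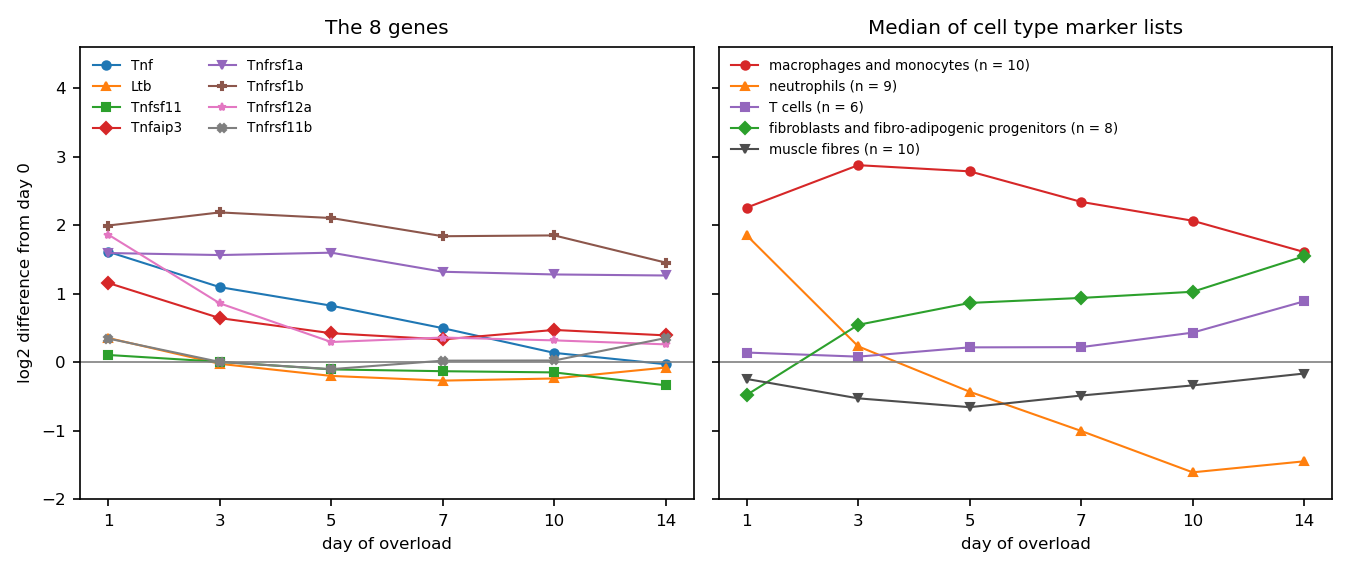
Log2 difference from day 0 (y axis) on days 1 to 14 (x axis, spaced evenly) for the 8 genes (left) and the median of 5 cell type marker lists with n genes each (right), on the same scale. The macrophage median is highest on day 3 at 2.87 and the neutrophil median on day 1 at 1.85, whereas the fibroblast median rises to 1.55 on day 14 and the muscle fibre median is lowest on day 5 at -0.66.

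Other cell types moved as well over the 14 days. Of 10 muscle fibre markers, 9 were lower on days 3 and 5 (medians -0.53 and -0.66) and 4 on days 1 and 14. Of 8 fibroblast and fibro-adipogenic progenitor markers, 2 were higher and 5 lower on day 1 (median -0.48) and 8 higher on day 14 (median 1.55), with a summed signal of 21979 to 22900 on day 0 and 53742 to 55686 on day 14. Of 8 endothelial markers, 1 was higher and 4 were lower on day 1 and 5 were higher and 2 lower on day 14 (medians -0.32 and 0.44). Of 6 smooth muscle and pericyte markers, 6 were lower on day 1 (median -0.95), and of 7 satellite cell markers 2 were lower on day 1 and 6 higher and 1 lower on day 10 (medians -0.11 and 0.55). Which cells carried the signals of the 8 genes was not tested.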

How the data were processed

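The authors deposited 1 log2 signal per probe set and array. Background correction and normalization were not given in the sources used here. Per the submitters' processing notes the software was Partek. The values ran from 2.35 to 14.8. Of 35557 probe sets, 21789 carried 1 gene symbol in the platform annotation, 1621 several and 12147 none. The probe set with the highest mean stood for a gene, which gave 19938 genes, with no filter on low values.

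All 14 arrays were fitted in limma 3.58.1 (R 4.3.3) with the day as group (7 residual degrees of freedom, prior 4.95), after the procedure had been tested on simulated data. There, with 50 genes changed at each size, 4% of log2 changes of 0.25 were recovered, 52% of those of 0.5 and 96% of those of 1. No other genes of the 19938 were changed, the changes were on day 3 only, and 5 unchanged genes were called. Far more genes were called in the data, which makes the adjusted threshold less strict, so these shares do not carry over to it. Small true changes could still go uncalled. Days were compared with day 0, with the preceding day and jointly (moderated F test), and sides with the day as block. All tests were two-sided, with Benjamini-Hochberg adjustment across the 19938 genes.

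The genes, lists and tests were chosen with earlier results of these data known. Named were the 8 genes, the 3 largest called changes of each pathway list, Tnfsf12, Tnfrsf11a, Ltbr, Adam17, Nfkbia and Lta, and the 3 genes nearest to each of the 8 whose day means spanned at least 1, leaving out predicted and small RNA genes. Rela, Ckm, Vcam1 and Calcr were named after their values were seen. Tnfsf12, Tnfsf13, Traf3, Ripk1, Chuk, Nfkb1, Lck and Trac were among the listed genes that had no probe set annotated to them alone.

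Each alternative changed 1 choice: arrays were quantile-normalized or set to equal medians, the dimmest 25% of genes were dropped, all probe sets of a gene were averaged, the variance was fitted with trend and robust options, arrays were weighted, the side entered as a replicate block, the fit was limited to the days compared, the threshold was set to 0.01, or 1 array was left out. Setting the median difference from day 0 to 0 was chosen after seeing the data. Promoters are from RefSeq, GRCm38.p6.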

Additional observations from a re-analysis of the deposited data

Results flagged for a closer look

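Left and right pools moved in opposite directions from their own day 0 pool in 7 of the 48 differences from day 0. For Tnf this was so on day 14 (0.08 on the left and -0.15 on the right), for Ltb on day 3 (0.1 and -0.15) and for Tnfsf11 on day 3 (-0.16 and 0.17). Tnfrsf11b did so on day 3 (-0.14 and 0.14), day 5 (-0.24 and 0.03), day 7 (-0.13 and 0.17) and day 10 (-0.21 and 0.26). With 1 pool a side and day, these differences between sides were not tested. For Tnfrsf11b the 4 days share the day 0 pools, which read 8.58 on the left and 8.31 on the right, the widest gap of this gene between the pools of a day.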

How the results depend on the processing

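Of the 48 differences of the 8 genes from day 0, 32 were called, and 24 of these kept their direction and side of the threshold under all 9 other settings and with each of the 14 arrays left out. The calls that ended were those of Ltb and Tnfrsf11b on day 1, Tnfrsf12a on days 5, 10 and 14, Tnfaip3 on day 7, and Tnfsf11 and Tnfrsf11b on day 14. No called difference changed its sign. Counts of the 111 pathway genes stayed within 1.5 times under every setting run. Equal array medians moved the median difference over all genes from -0.12 to -0.25 on day 5 and from -0.14 to -0.29 on day 7. The side as a replicate block left 7 of the 8 genes called on day 1 and 6 on day 14, and changed no call of the 8 genes. Right minus left differences correlated between days at r from -0.19 to 0.35 across genes (median 0.07), with 6 of 21 pairs of days over 0.1. Whether the side pairs the days was not tested.

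Uncalled differences near 0 changed sign. With quantile normalization, Tnfsf11 on day 3 was -0.087 and Tnfrsf11b was -0.070, -0.099 and -0.093 on days 3, 7 and 10. With equal array medians, these were -0.092, -0.094, -0.12 and -0.11, and Tnf on day 10 was -0.0013. With the median difference set to 0, Ltb was 0.043 on day 3 and 0.024 on day 14, Tnfsf11 was 0.010 on day 5 and 0.00017 on day 7, Tnfrsf11b was 0.014 on day 5 and Tnf was 0.073 on day 14. With single arrays left out, day 3 ranged from -0.12 to 0.073 for Ltb, -0.18 to 0.19 for Tnfsf11 and -0.14 to 0.14 for Tnfrsf11b. Tnfrsf11b ranged from -0.24 to 0.035 on day 5, -0.12 to 0.16 on day 7 and -0.11 to 0.16 on day 10. On day 14, Tnf ranged from -0.17 to 0.11 and Ltb from -0.18 to 0.018.

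Counts that moved by over 1.5 times were those of day 14 against day 0 (6 genes; 3 at an adjusted p under 0.01, and 3 to 6 with an array left out), day 3 against day 1 (5; 3 and 3 to 6) and day 14 against day 10 (1; 0 to 2 with an array left out, and 2 without the lowest 25% of genes, with trend and robust estimation, and with array weights). Array weights also called 1 gene on day 10 against day 7. The cause was not tested; the stricter threshold calls fewer genes by construction. With 2 pools a day, few arrays stand behind the small differences of Ltb, Tnfsf11 and Tnfrsf11b.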
